A study of Homo sapiens with 4 samples.

Results

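The 4 ID genes, ID1, ID2, ID3 and ID4, were examined for GATA3 binding in H1 human embryonic stem cells (hESCs), an established pluripotent line, after 6 h in BMP4 at 50 ng/ml. The genes were chosen by name, as 4 of 20033 protein-coding genes. GATA3 was profiled in 2 ChIP-seq replicates, each with its own input chromatin, and all 4 samples had received BMP4. There was thus no untreated sample in these comparisons, and no value here compares cells with and without BMP4. Each replicate's file held 1 base position per peak, with no width, height or q-value. A locus reached 200 kb to either side of a gene's 5′ end (hg38), and replicate positions within 100 bp of each other made a shared region. The loci held 19 of 18456 positions of replicate 1, 17 of 12782 positions of replicate 2 and 6 of 9145 shared regions. Read depth cannot be read from these files, so a missing position means no listed peak and not an absence of binding. Neither the name of the cells nor the standing of these genes as BMP targets can be checked from peak positions.

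ID proteins (inhibitors of DNA binding) are small helix-loop-helix proteins that lack the basic region with which related factors hold DNA. They pair with E proteins, such as those encoded by TCF3, TCF4 and TCF12, and keep them from DNA. Their genes are known as early targets of BMP signals, switched on by phosphorylated SMAD proteins, and ID proteins are linked to holding cells in an undifferentiated or proliferating state. GATA3 is a zinc finger factor that binds short sequences with GATA at their core.

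The 4 loci differed in how many GATA3 regions both replicates shared. ID1 had 4 shared regions within 200 kb, ID2 and ID3 had 1 each, and ID4 had 0. At least 1 shared region lay within this distance of 67.7% of protein-coding genes, so finding one at 3 of 4 ID genes was close to the background. At least 4 regions, the number at ID1, lay near 6.3% of genes, and 0 regions, the number at ID4, near 32.3%. The median gene had 1. With a shared distance of 50 bp ID1 had 2 regions, and with 250 bp it had 6, ID2 and ID3 had 2 each and ID4 had 0. Within 10 kb of the 5′ end only ID1 had a shared region among the 4, against 8.69% of all genes. These shares describe where the genes stand, and none of them was tested, because the genes had been proposed with earlier results of these data known.

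For each ID gene with a shared region within 200 kb, which leaves out ID4, the sequence of the nearest one is printed first. It holds positions that the replicates placed within 100 bp of each other. Capitals mark the GATA motif, which was searched on both strands as AGATAA or AGATAG or TGATAA or TGATAG. The plus strand of hg38 is shown, in windows of 200 bp around the region centre. The ID2 window was shortened to 171 bases where it met an annotated untranslated exon. The windows are chr20:31607391-31607590 for ID1, chr2:8872937-8873107 for ID2 and chr1:23539945-23540144 for ID3.
ID1, 2.21 kb downstream of its 5′ end: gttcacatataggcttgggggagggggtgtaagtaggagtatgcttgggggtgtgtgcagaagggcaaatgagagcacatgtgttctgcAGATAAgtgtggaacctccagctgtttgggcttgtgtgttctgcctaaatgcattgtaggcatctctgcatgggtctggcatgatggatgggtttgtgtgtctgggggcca
ID2, 194 kb downstream of its 5′ end: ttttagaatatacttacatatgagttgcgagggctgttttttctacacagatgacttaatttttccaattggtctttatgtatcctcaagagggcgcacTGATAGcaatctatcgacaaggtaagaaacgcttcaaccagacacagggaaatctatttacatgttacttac
ID3, 19.5 kb downstream of its 5′ end: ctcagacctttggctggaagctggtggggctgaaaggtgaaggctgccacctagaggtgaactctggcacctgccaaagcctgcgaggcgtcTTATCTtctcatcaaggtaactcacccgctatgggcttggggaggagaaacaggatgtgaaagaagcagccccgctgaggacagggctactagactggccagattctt
The ID1 window holds AGATAA on the plus strand. The ID3 window holds the same letters on the minus strand, so that its line reads TTATCT. The ID2 window holds TGATAG.

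**Figure D1:**
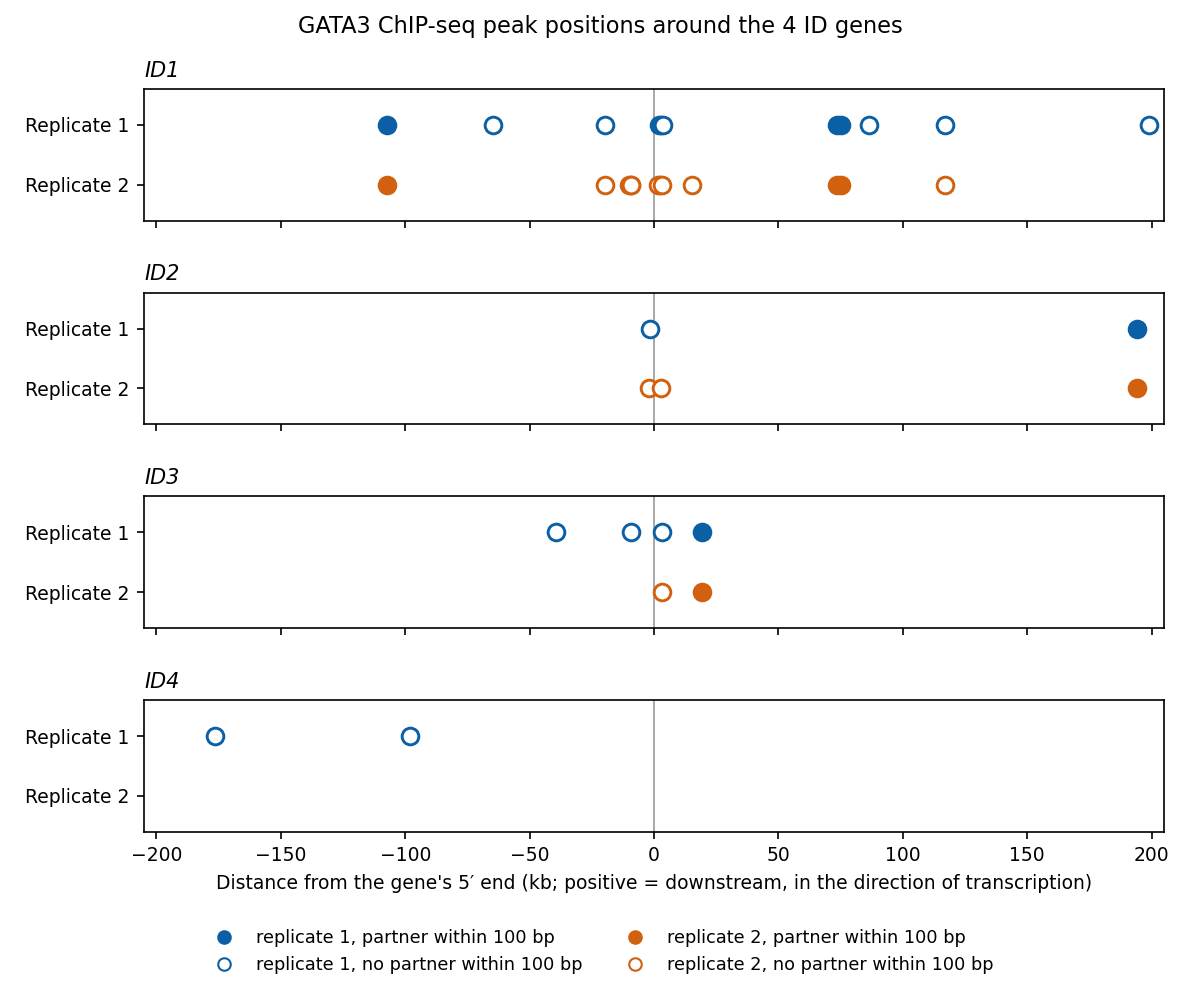
Peak positions of the 2 GATA3 ChIP-seq replicates within 200 kb of the 5′ end of each ID gene, in kb along the direction of transcription. Filled circles have a partner in the other replicate within 100 bp and open circles have none. ID1 holds 11 and 12 positions, ID2 2 and 3, ID3 4 and 2, and ID4 2 and 0.

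ID1 (ENSG00000125968.9, chromosome 20, 31605283 to 31606515, plus strand) was the locus with the most positions, 11 in replicate 1 and 12 in replicate 2. The median protein-coding gene had 2 and 1. Replicate 2 had the longer list at ID1 although its whole list was the shorter by a ratio of 1.44, and 11.1% of genes had more positions of replicate 2 than of replicate 1 in such a window. ID2 was also one of these, with 2 and 3 positions. At ID3 and ID4 replicate 1 had more.

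Downstream of ID1 the replicates marked the same stretch but mostly different bases in it. Replicate 1 listed positions 2.18, 2.71 and 3.43 kb downstream of the 5′ end, and replicate 2 listed 1.75, 2.24 and 3.15 kb. All 6 lay past the 3′ end of the gene, by 0.521 to 2.19 kb, in intergenic sequence over 1673.5 bp. Only 31607460 in replicate 1 and 31607521 in replicate 2 lay within 100 bp of each other, 61 bp apart. This pair was the only shared region at the 4 loci whose nearest protein-coding 5′ end was that of an ID gene, and its AGATAA lay 8 bp from the centre. A shared region this near or nearer was found at 3.79% of protein-coding genes. The authors' files named MIR3193, a microRNA gene, for all 6 positions. In the genome 8 runs, with gaps of at most 1 kb, held 3 or more positions of each replicate, and the run at ID1 was 1 of 3 among them with at most 1 shared region. Runs were counted after these positions had been seen.

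Upstream of ID1, replicate 2 alone listed 3 positions at 31595235, 31595867 and 31596184, which are 10.0, 9.42 and 9.10 kb from the 5′ end. The authors' files gave ID1 as the gene name for these 3 positions and for no other position. The nearest position of replicate 1 was 9531.5 bp away from the first of them. Replicate 2 had 15 runs of 3 or more positions with gaps of at most 1 kb, and this was the only 1 of them with no position of replicate 1 within 1 kb. None of the 28 such runs in replicate 1 lacked replicate 2 in the same way. The 3 windows of 200 bp held 0 matches to the GATA motif. Their GC content was 56%, 48% and 66%. The window of the middle position, chr20:31595768-31595967, is printed as an example of these calls. It holds 1 of the 3 positions, and the bases of the run outside the 3 windows were not searched.
ID1, 9.42 kb upstream, replicate 2 only: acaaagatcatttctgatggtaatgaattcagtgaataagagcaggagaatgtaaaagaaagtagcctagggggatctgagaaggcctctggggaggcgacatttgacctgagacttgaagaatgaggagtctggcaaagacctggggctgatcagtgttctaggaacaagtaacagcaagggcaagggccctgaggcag

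The other 3 shared regions at ID1 were distal and nearer to other genes. One lay 107 kb upstream, at 31498052 and 31498055, with 3 GATA motif matches, and was 16.4 kb upstream of HM13. A pair lay in introns of BCL2L1, which encodes an inhibitor of apoptosis, 73.6 and 75.2 kb downstream of the ID1 5′ end. Their replicate positions were 8 and 72 bp apart and each held 1 AGATAA. COX4I2 had the protein-coding 5′ end nearest to both, 40.9 and 42.6 kb away. A further pair of positions, 31722265 and 31722377, lay in an exon of BCL2L1, 1.72 and 1.61 kb inside its 5′ end, and missed the shared distance at 112 bp apart, with AGATAA in both windows. Positions 19.6 and 19.7 kb upstream of ID1 were 163.5 bp apart. Single positions without a partner within 500 bp were at -64.7, 86.6 and 199 kb in replicate 1 and at 15.3 kb in replicate 2, beside the upstream run.

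ID2 (ENSG00000115738.10, chromosome 2, 8678845 to 8684461, plus strand) had positions of both replicates close to the gene, but not as a shared region. Replicate 1 listed 8677200 and replicate 2 listed 8677004, which are 1.65 and 1.84 kb upstream of the 5′ end and 196 bp apart. Both lie in ID2-AS1, a long noncoding RNA gene that runs in the opposite direction. AGATAA was 39.5 bp from the position of replicate 1, and the window of replicate 2 held 0 GATA motif matches. Replicate 2 had a further position, 8681630, without a partner. It lay 2.79 kb downstream of the gene's 5′ end but 0.426 kb upstream of the start of the canonical transcript at 8682056, so that it was the position nearest to an ID promoter among all 36 at the loci. The only shared region, 8873034 and 8873039, lay in an intron of MBOAT2, a gene for a lipid acyltransferase, and KIDINS220 had the nearest 5′ end, 35.4 kb away.

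The windows of the pair and of the position before the canonical start are shown because they hold the positions closest to the ID2 promoters. In the first, chr2:8677003-8677202, capitals mark the GATA motif, here TTATCT on the plus strand at 8677158 to 8677163. In the second, chr2:8681566-8681730, which holds 0 GATA motif matches, capitals mark GTCTG or else GGCGCC, sequences bound by SMAD proteins. It was shortened to 165 bases at an annotated untranslated exon.
ID2, pair upstream of the gene: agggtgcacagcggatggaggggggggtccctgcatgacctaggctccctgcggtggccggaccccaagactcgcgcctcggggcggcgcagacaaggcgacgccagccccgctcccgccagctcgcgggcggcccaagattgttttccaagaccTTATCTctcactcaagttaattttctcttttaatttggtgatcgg
ID2, before the canonical start, replicate 2 only: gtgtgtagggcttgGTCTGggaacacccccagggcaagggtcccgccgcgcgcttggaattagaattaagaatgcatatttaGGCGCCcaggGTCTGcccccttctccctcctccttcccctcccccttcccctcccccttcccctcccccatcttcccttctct
The second window holds GTCTG 2 times with GGCGCC 1 time.

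ID3 (ENSG00000117318.9, chromosome 1, 23557926 to 23559501, minus strand) resembled ID2 in that the nearest positions of the replicates just missed each other. They were 23556458.5 in replicate 1 and 23556355.5 in replicate 2, 103 bp apart, 3.04 and 3.15 kb downstream of the 5′ end. Like the shared region of ID1, the pair lay past the 3′ end of the gene, by 1.47 and 1.57 kb. Neither window held a match to the GATA motif or to GTCTG or else to GGCGCC. The shared region of the locus was 19.5 kb downstream, at 23540042 and 23540047, but 8.81 kb upstream of E2F2, a cell cycle regulator, whose name the authors' files gave it. Replicate 1 alone listed positions 9.23 kb upstream, with AGATAA 10.5 bp away, and 39.3 kb upstream, in MDS2, with 0 GATA motif matches. The window of the pair, chr1:23556308-23556507, is printed because it holds the positions nearest to ID3.
ID3, pair downstream of the gene: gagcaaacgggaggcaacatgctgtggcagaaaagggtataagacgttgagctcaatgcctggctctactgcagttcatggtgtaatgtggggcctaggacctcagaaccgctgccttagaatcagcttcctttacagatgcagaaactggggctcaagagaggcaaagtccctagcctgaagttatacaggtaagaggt

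ID4 (ENSG00000172201.12, chromosome 6, 19837370 to 19842197, plus strand) had the fewest listed positions of the 4 over both replicates. Replicate 1 listed 19661076 and 19739206, which are 176 and 98.2 kb upstream, and replicate 2 listed 0 positions within 200 kb. At least 1 position of replicate 1 was within this distance of 86.3% of genes, and at least 1 of replicate 2 within this distance of 77% of genes. Both positions lay in introns of LNC-LBCS, a long noncoding RNA gene, and 1 of them had a GATA motif match. The nearest shared region was 360 kb downstream, and 85.5% of genes had one as near or nearer. ID4 was also the only locus with 0 other protein-coding 5′ ends within 200 kb, against 9 at ID1, 1 at ID2 and 6 at ID3. The part of neighbouring genes in these counts was not tested.

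**Figure D2:**
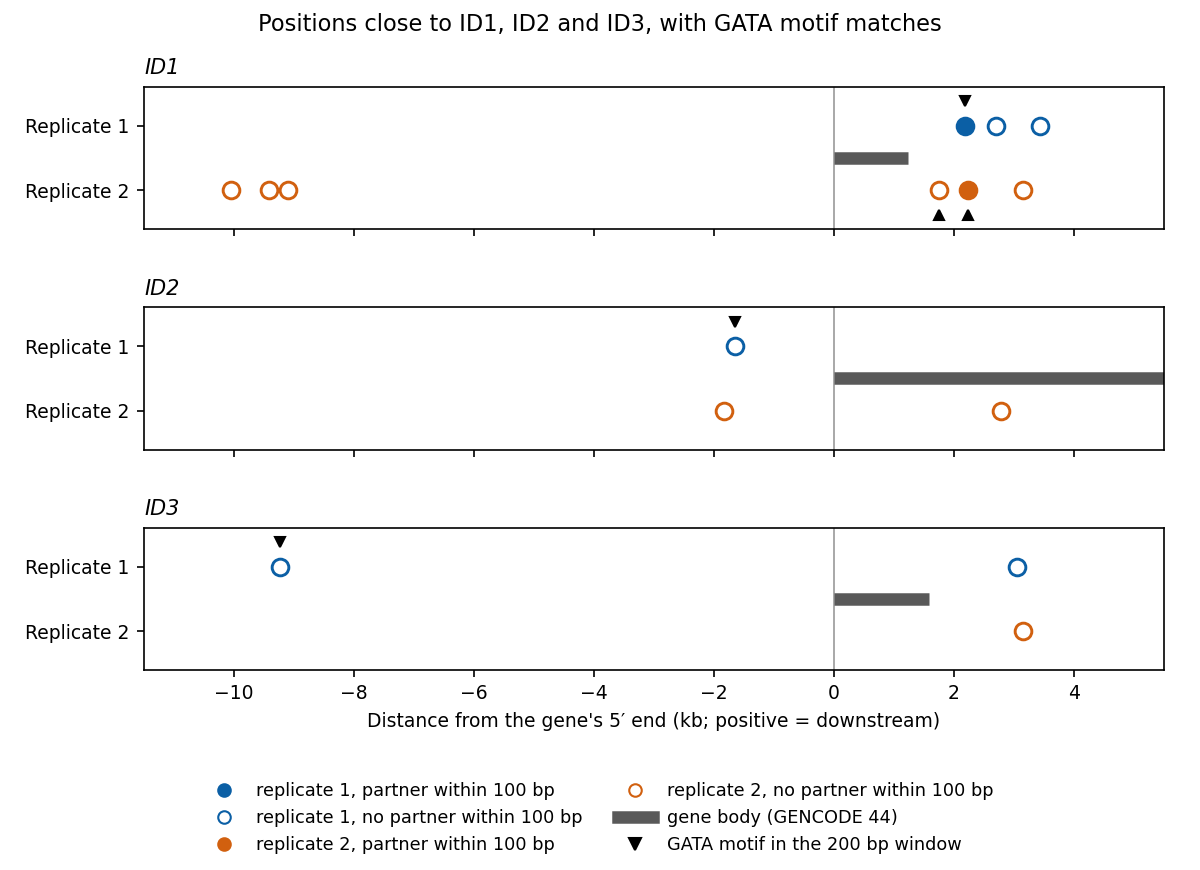
Positions around the 5′ ends of ID1, ID2 and ID3 (kb along the direction of transcription, by replicate), with the gene body as a grey bar (that of ID2 runs past the edge) and triangles where the 200 bp window holds the GATA motif. ID1 and ID3 have positions of both replicates past their 3′ ends, and the 3 upstream positions at ID1 belong to replicate 2.

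No position fell within 1 kb of the annotated 5′ end of any of the 4 genes, and only the one at ID2 fell within 1 kb of a canonical start. RefSeq promoter windows (GRCh38.p14, 250 bases before to 50 after the gene start) were found for all 4 and held 0 positions of either replicate. How many of all such windows hold a position, or of all genes within 1 kb, was not counted. These 0 counts therefore do not set the ID genes apart from other genes. The GATA motif was in 25% of 35116 promoters of this length and had 1 match at ID2 and 0 at ID1, ID3 and ID4. GTCTG was in 45.3% of promoters and had 1 match each at ID3 and ID4. GGCGCC was in 19.2% of them and had 0 matches at the 4 genes.

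Within 5 kb, a distance chosen after the positions had been seen, ID1, ID2 and ID3 had positions of both replicates, as did 6.7% of all protein-coding genes. For ID2 and ID3 none of these were shared, since the replicates marked points 196 and 103 bp apart. Among the 1343 genes with both replicates within 5 kb, 168 (12.5%) lacked a shared region at that distance. With a shared distance of 250 bp the nearest shared region lay at -1.74 kb from ID2 and 3.09 kb from ID3, and with 50 bp that of ID1 lay 73.6 kb away.

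That spacing was compared with the rest of the genome. At the ID loci 6 of 19 positions of replicate 1 (31.6%, exact 95% CI 12.6 to 56.6) had a partner within 100 bp, against 49.6% over all chromosomes. For replicate 2 it was 6 of 17 (35.3%, exact 95% CI 14.2 to 61.7) against 71.5%. A partner over 100 and up to 500 bp away was found for 6 positions of each replicate, 31.6% and 35.3% of them, against 6.89% and 9.80% over all chromosomes. In each replicate 4 of these 6 lay at ID1, and ID2 and ID3 had 1 each. A partner is the nearest position of the other replicate, so these are not 6 separate pairs. At ID1 the partner of 31607036 was 31607460, which was already in a shared region. That of 31607988 was 31608437, which itself lay nearer to 31608709.5. With 500 bp as the limit the shares were 63.2% and 70.6% at the ID loci and 56.4% and 81.3% over all chromosomes. The intervals cover counting error only. Since positions in 1 locus are not independent, the difference was not tested. The farthest partner counted as shared was 72 bp away and the nearest counted as not shared 103 bp, at ID3. At the edge of the loci, the farthest position inside was 199 kb from ID1 and the nearest outside was 201.8 kb from ID3, where both replicates listed a peak.

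**Figure D3:**
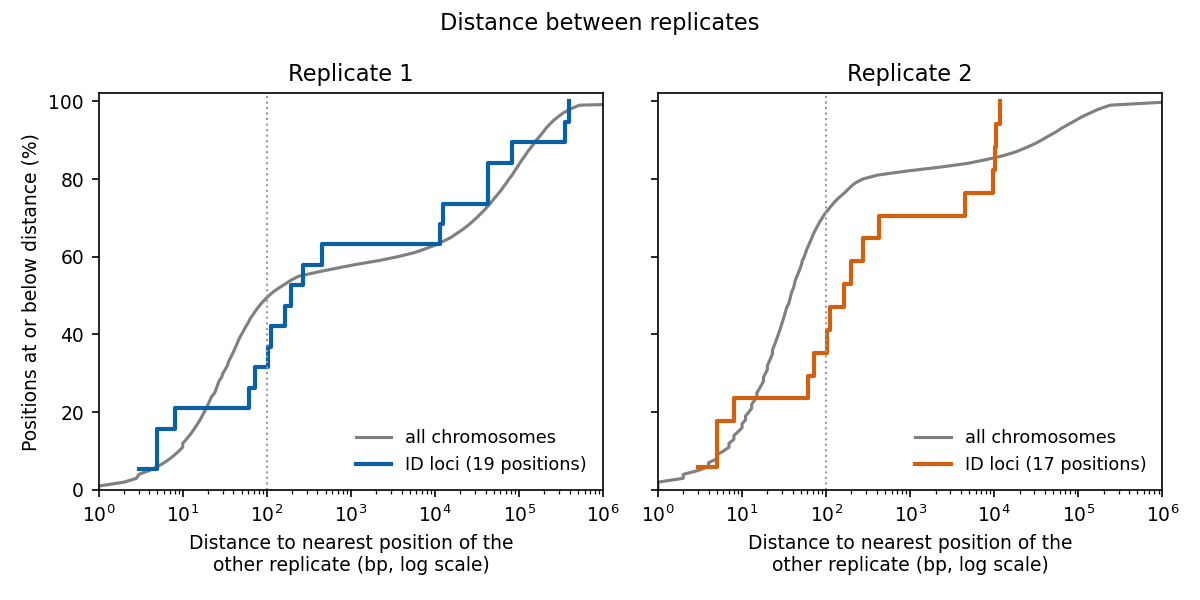
Cumulative share of positions (%) by distance to the nearest position of the other replicate (bp, log scale), for the ID loci (steps) and all chromosomes (grey). The dotted line is 100 bp, where 31.6% of the 19 positions of replicate 1 and 35.3% of the 17 of replicate 2 had been reached, against 49.6% and 71.5% over all chromosomes.

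All 6 shared regions at the ID loci held the GATA motif in 200 bp, 0.5 to 28.5 bp from the centre, against 82.0% of all 9145 shared regions. AGATAA, one of its versions, was in 5 of the 6, against 51.6%. Of the 24 single positions 11 held the GATA motif, 7 of 13 in replicate 1 and 4 of 11 in replicate 2. Over all chromosomes 72.9% and 67.0% of single positions did. Within 10 kb of an ID 5′ end, 2 of 5 single positions of replicate 1 and 1 of 7 of replicate 2 held it, against 60.7% and 56.8% of single positions within 10 kb of any protein-coding gene. Farther than 10 kb from an ID 5′ end, 5 of 8 and 3 of 4 held it. Of single positions over 10 kb from any protein-coding 5′ end, 75.3% and 69.4% did. The 2 sides differ, because the ID side includes positions within 10 kb of other genes. These were 31540574 near MCTS2 and 31722265 and 31722377 near BCL2L1, each with the motif. These numbers are small, the exact interval for 1 of 7 running from 0.361% to 57.9%. The 3 upstream positions at ID1 share 1 stretch, which the 10 kb limit cuts. Of them 31595235, 10.048 kb upstream and without the motif, counts among the 4 of replicate 2 farther out.

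The SMAD sequences were looked at because the ID genes are targets of the BMP pathway. GTCTG, counted on both strands like GGCGCC, was in all 6 shared regions at the ID loci, against 36.1% of all shared regions (exact 95% CI for 6 of 6, 54.1% to 100%). From the replicate positions of these regions the nearest GTCTG lay 26 to 95 bp away, in part close to the window edge. Around the replicate 2 position of the ID3 region the window held 0. Other window widths were tried for the GATA motif and not for GTCTG. Among the 24 single positions 11 held GTCTG, against 33.8% and 35.9% of all single positions in the replicates. GGCGCC was in 0 of the 6 shared regions, against 1.96%, and in 4 of the 24 single positions, against 2.09% and 2.80%. Of these 4, 3 were within 10 kb of ID1 or ID2. At such distances from any protein-coding gene, 5.94% and 6.52% of single positions held GGCGCC. A match is a match of letters, and SMAD binding was not measured in these samples.

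The 10 other BMP target and feedback genes that were listed had a median of 2 shared regions, against 1 for the ID genes and 1 for all genes. A region was within 200 kb of 9 of the 10, against the 67.7% of all genes, and within 10 kb of 4 of them, against 8.69% of all genes. These 4 were SMAD7, BAMBI, GATA2 and GATA3. GATA3 and GATA2, which encode GATA factors, had 6 and 11 regions, with the nearest 1.14 kb downstream and 2.37 kb upstream of the 5′ end. GATA3 is itself the factor that was precipitated. SMAD7, which encodes an inhibitory SMAD, had its nearest region 2.49 kb downstream, and SMAD6, its relative, 22.3 kb upstream. For SMAD9, a receptor-activated SMAD, it lay 54.5 kb upstream.

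Among the extracellular and membrane antagonists, BAMBI, a pseudoreceptor, had 3 regions and NOG, the BMP antagonist noggin, had 4, as many as ID1. Like ID2 and ID3, both had positions of the replicates within 5 kb that were not shared, 171.5 bp apart at BAMBI and 130 bp apart at NOG. The homeobox gene MSX2 and the helix-loop-helix gene ATOH8 had their nearest regions 152 kb downstream and 179 kb upstream. MSX1 had 0 positions of either replicate within 200 kb. Of the E protein genes, whose products pair with ID proteins, all 3 had a region within 200 kb, as did 67.7% of all genes. The nearest was 12.2 kb downstream for TCF12, 23.3 kb upstream for TCF3 and 192 kb upstream for TCF4. The median was 1, as for all genes.

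**Figure D4:**
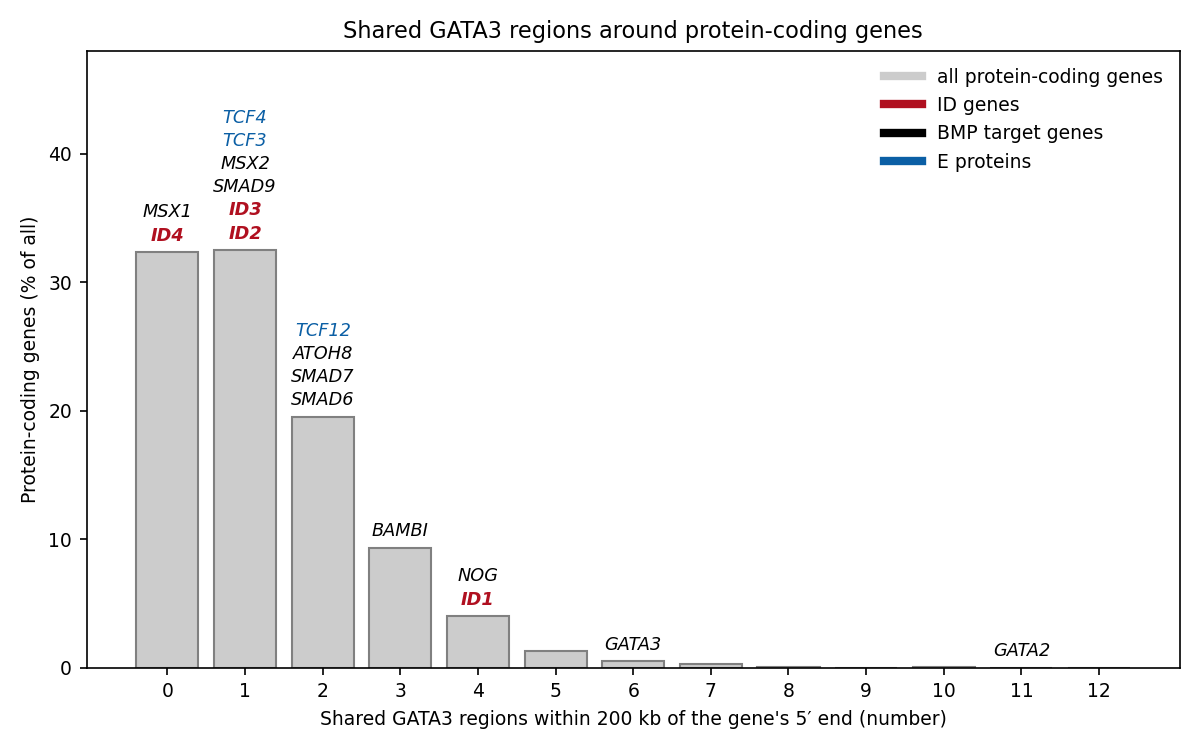
Protein-coding genes (% of 20033) by the number of shared GATA3 regions within 200 kb of the 5′ end, with the ID genes (red), BMP target genes (black) and E protein genes (blue) named above the bar of their number. ID4 stands at 0, ID2 and ID3 at 1 and ID1 at 4.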

How the data were processed

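Per the labels there were 4 samples, 2 of GATA3 ChIP and 2 of input chromatin, and the study's methods call the 2 replicates biological. The deposited peak files, 1 for each ChIP replicate, were used. They hold a position and a gene name for each peak, and no score. The tools and the hg38 build come from the submitters' processing notes and the study's methods. The authors trimmed reads with cutadapt, aligned them with bowtie, removed duplicates with Picard, left out multiply mapped reads and blacklisted regions, and called peaks in each replicate against its input with MACS2 at a q-value of 0.05. The deposited lists held 18545 and 12870 lines, which differ from the peak numbers given in the study's methods. The number of peaks called can depend on depth, which is not known from these files. Neither how a peak became 1 position nor whether bases count from 0 or 1 is given in the sources used here. Positions are printed as deposited, some of them between bases.

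Repeated lines were joined, which removed 7 and 5, and 24 chromosomes were kept. Gene ends and places were taken from GENCODE release 44. Linked replicate positions within 100 bp made up a shared region, whose centre was the mean position. Motifs were counted in 200 bp of hg38 sequence. Intervals are exact Clopper-Pearson intervals from scipy 1.17.1. Python 3.11.15, pandas 2.3.3 and pysam 0.24.0 were used. The linking, gene windows and motif search were tested on simulated data.

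The members and lists were chosen with earlier results of these data known. The named genes are the ID genes, the listed BMP target and E protein genes, and the genes nearest to a position at an ID locus or named for it in the files. Sequences were printed for the nearest shared region of each ID gene that had one within 200 kb, with 4 windows added after the positions were seen. Other shared distances, loci, motif windows and gene starts, and each replicate alone, were tried. No comparison between conditions was possible.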

Additional observations from a re-analysis of the deposited data

How the results depend on the processing

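No paired analysis was possible because the results are counts and distances without a test, and the input samples have no file that was used. The 6 shared regions became 2 within 50 kb, 13 within 500 kb and 10 with a shared distance of 250 or 500 bp. With 1 replicate left out no region can be shared, so those values are counts of, or distances to, positions of the other replicate. The count of positions then ran from 17 to 19. The nearest shared region of ID1 moved to 73.6 kb at 50 bp. At 500 bp it was centred at 2.58 kb, where the 6 positions past the gene joined into 1 region. With 1 replicate left out the distance for ID1 ran from 1.75 to 2.18 kb. The nearest shared region of ID2 passed to the upstream side, at -1.74 kb, with 250 or 500 bp, and the distance was -1.84 to -1.65 kb with 1 replicate left out. For ID3 it came to 3.09 kb at 250 or 500 bp, and 3.04 to 3.15 kb with 1 replicate left out. For ID4 it came to 289.7 kb, and ran from -98.2 to 289.6 kb with 1 replicate left out. Positions in both replicates rose to 63.2% and 70.6% at 500 bp. Single positions with the GATA motif fell to 6 in 100 bp windows, and 7 held AGATAA. Over all annotated genes 66.9% had a shared region and 6.79% at least 4. Of the BMP target genes 5 of 10 had a region within 50 kb, where 29.1% of all protein-coding genes had one within 54.5 kb. The other 27 values for the comparisons stayed within their interval or 1.5 times, among them the GATA motif at all 6 shared regions in windows of 100 and 400 bp. The causes were not tested. Which ID gene counts as bound near its start therefore rests on the shared distance for ID1, ID2 and ID3, and these files hold no peak width or score to set it by.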

Other observations

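The numbers of listed positions and shared regions farther out differed again between the loci. Within 500 kb ID2 had 10 positions of replicate 1 and 9 of replicate 2, which formed 5 shared regions, as many as the 5 at ID1, where replicate 1 had 12 and replicate 2 had 13. ID3 had 2 shared regions within that distance and ID4 had 1. At ID1 most of the positions within 500 kb were thus inside 200 kb, and at ID2 most were outside it. These values were not compared with a background, so they do not show whether any locus was rich or poor in regions.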
